A study of Mus musculus with 24 samples.

Results

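The genes described here are 8 long noncoding RNA genes of the mouse, Kcnq1ot1, Meg3, Rian, Mirg, Malat1, Neat1, Miat and Snhg11, chosen by symbol from the 49568 gene rows that each library lists. All 8 passed the filter on low counts, which left 20187 genes for testing, and together they took 0.524 to 0.999% of the read pairs counted on genes in a library, with a median of 0.734%. The choice was made with their levels in these libraries already known, so levels, fold changes and correlations of the 8 genes are given as a description and without p values.

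Long noncoding RNAs of this kind are transcribed and processed much like mRNA but act, or remain, largely in the nucleus. Malat1 lies in nuclear speckles, where splicing factors are stored, and Neat1 is the scaffold of paraspeckles, bodies that hold proteins such as NONO and SFPQ. Kcnq1ot1 is transcribed from the paternal chromosome antisense to the potassium channel gene Kcnq1 and silences imprinted neighbours, and Meg3, Rian and Mirg are transcribed from the maternal chromosome of the Dlk1-Dio3 imprinted region, where they host microRNAs and small nucleolar RNAs. Miat, also called Gomafu, is a nuclear RNA of neurons that binds splicing factors, and Snhg11 is a host gene of small nucleolar RNAs with strong expression in neurons.

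RNA was taken from the hippocampus of Aged male mice between 21 and 23 months old, 1 library per mouse, on a C57-Bl/6J background. Wild-type mice in standard housing (WTSH) and in enriched housing (WTEE) were compared with MSK1 kinase-dead mice in standard (KDSH) and enriched housing (KDEE). The kinase-dead mice carry a knock-in point mutation in the endogenous Rps6ka5 gene in all cells, and the WT and mutant mice were bred as separate lines, so that genotype and line cannot be told apart. Enriched mice moved at 18 months into large rat cages with a running wheel and objects to explore. The libraries were made from RNA captured by its poly(A) tail, and of 24 libraries the study kept 21 (4 WTSH, 6 WTEE, 5 KDSH, 6 KDEE) and set aside WTSH samples 4 and 7 and KDSH sample 6 for ribosomal RNA and low correlation with their groups.

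Levels are read pairs per 1000000 counted on genes, after TMM scaling (CPM), over the 21 libraries unless stated otherwise. Summed levels of marker genes are the exception and are given in CPM without TMM scaling. The 21 libraries held 27410239 to 71907130 counted read pairs, and no 2 libraries of a group agreed within counting noise. Rps6ka5 mRNA was at 23.3 ± 2.1 CPM (SD) in the 4 WTSH libraries, 21.7 ± 3.95 in the 6 of WTEE, 24.1 ± 0.456 in the 5 of KDSH and 23.7 ± 0.571 in the 6 of KDEE, which checks no label because a point mutation need not change the mRNA. The summed level of 6 hippocampal excitatory neuron markers, none of them at 0, ranged from 5608 to 8772 CPM. One kept library, WTEE sample 10, stood apart: it had the lowest neuron marker sum and the extreme value of 5 of the 8 genes, and results that rest on it are given with and without it. In whole tissue, fewer cells of a type and less RNA per cell cannot be told apart.

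Positions are those of GRCm38 from the GENCODE M21 annotation. Kcnq1ot1 (ENSMUSG00000101609) is a single unspliced exon of 93092 bases at chr7:143203458-143296549 on the minus strand, inside Kcnq1, which runs on the plus strand. Meg3 (ENSMUSG00000021268, chr12:109541001-109571726), Rian (ENSMUSG00000097451, chr12:109603940-109661716) and Mirg (ENSMUSG00000097391, chr12:109729764-109749460) follow each other on the plus strand of chromosome 12. Malat1 (ENSMUSG00000092341, chr19:5795690-5802672) and Neat1 (ENSMUSG00000092274, chr19:5824708-5845478) are neighbours on the minus strand of chromosome 19, each with its exon bases in 1 block. Miat (ENSMUSG00000097767) lies at chr5:112213228-112229395 on the minus strand and Snhg11 (ENSMUSG00000044349, labelled protein_coding in this annotation) at chr2:158375638-158386145 on the plus strand.

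Read pairs were counted without regard to strand, so a gene and its antisense partner cannot be told apart where they overlap. Of the merged exon bases of Miat, 30.4% are shared with other genes, among them the opposite-strand Gm26953, so its level per kilobase may be understated. The shared part is 1.2% for Kcnq1ot1 and at most 8.29%, for Meg3, among the other 7 genes. These shares cover exon bases only. The whole of Kcnq1ot1 lies within Kcnq1, so reads from Kcnq1 introns there would be counted on Kcnq1ot1. How many such reads there were was not tested.

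MSK1 phosphorylates CREB, which binds the cAMP response element TGACGTCA and its shorter core TGACG, so the promoters were searched for these letters on both strands. The sequences are those of RefSeq on GRCm38.p6, each 300 bases around an annotated start, and 7 of the 8 genes had at least 1, Meg3 having 2 and Neat1 none. Of these 7 genes Meg3 alone held the full element, at chr12:109540746-109541045 on the plus strand, and this element occurs in 1.79% of 32851 promoters. Malat1 held the core at 3 places (chr19:5802623-5802922, minus strand), and 1.03% of promoters hold it at 3 or more. Kcnq1ot1 held it at 1 place (chr7:143296498-143296797, minus strand), against 20.8% of promoters with at least 1. The full element contains the core on both strands, so the Meg3 match also counts as 2 core matches. Kcnq1ot1 also held the CCAAT box at 3 places, which 3.37% of promoters do at 3 or more. These 3 promoters are shown because Meg3 has the highest mean level per length and Malat1 and Kcnq1ot1 are those with the largest differences between the enriched groups. Capitals mark TGACGTCA in Meg3, TGACG or its reverse complement in Malat1, and TGACG or its reverse complement and CCAAT in Kcnq1ot1.
Meg3 promoter: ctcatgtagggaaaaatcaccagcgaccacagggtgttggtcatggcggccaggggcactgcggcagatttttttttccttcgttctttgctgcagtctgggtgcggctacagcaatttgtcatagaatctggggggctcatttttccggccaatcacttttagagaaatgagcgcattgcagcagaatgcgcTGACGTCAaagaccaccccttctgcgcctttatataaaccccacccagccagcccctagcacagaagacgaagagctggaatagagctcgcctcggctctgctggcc
Malat1 promoter: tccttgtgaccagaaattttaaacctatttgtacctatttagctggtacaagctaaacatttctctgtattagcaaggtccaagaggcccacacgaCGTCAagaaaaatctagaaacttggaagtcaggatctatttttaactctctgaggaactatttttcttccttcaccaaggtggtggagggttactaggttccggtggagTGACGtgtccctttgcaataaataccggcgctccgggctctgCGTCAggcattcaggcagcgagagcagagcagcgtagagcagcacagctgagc
Kcnq1ot1 promoter: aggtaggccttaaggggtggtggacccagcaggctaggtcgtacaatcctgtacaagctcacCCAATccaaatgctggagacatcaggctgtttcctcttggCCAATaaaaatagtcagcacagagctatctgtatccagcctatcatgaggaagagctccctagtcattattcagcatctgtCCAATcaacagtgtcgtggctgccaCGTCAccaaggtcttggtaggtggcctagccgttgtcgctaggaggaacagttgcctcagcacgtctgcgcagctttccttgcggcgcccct

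The matches say only which letters are in these windows. In the other promoters, those of Snhg11, Miat, Rian and Mirg and the second one of Meg3, neither TGACGTCA nor TGACG was found. The TATA box letters TATAAA were found in the first Meg3 promoter alone, at 2 overlapping places, and in 13.6% of all promoters.

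Because the RNA was captured with poly-T beads, the runs of A inside the transcripts were also counted, in the longest GENCODE transcript of each gene. The 93092-base Kcnq1ot1 transcript held 8 runs of at least 12 A, the longest of 41, and 3 of 19497 tested genes with a transcript, Kcnq1ot1 among them, held 8 or more. Meg3 held 3 such runs, Rian 1 and Malat1 1, and Mirg, Neat1, Miat and Snhg11 none, while 10.5% of the 19497 genes held at least 1. These counts take no account of transcript length. Per kb of transcript, Kcnq1ot1 held 0.086 runs, fewer than Meg3 (0.206), Malat1 (0.143) and Rian (0.124). The single Malat1 run lies in the A-rich stretch near the 3′ end of its gene, and the annotated long Neat1 transcript ends in a similar stretch, AAAAAGCAAAA, which Malat1 also contains once. Shown with their surroundings are the longest Kcnq1ot1 run (chr7:143226925-143227005), the Malat1 run (chr19:5795968-5796019) and the last 40 bases of Neat1 (chr19:5824708-5824747), all on the minus strand, with the runs and the shared stretch in capitals.
Kcnq1ot1 run of A: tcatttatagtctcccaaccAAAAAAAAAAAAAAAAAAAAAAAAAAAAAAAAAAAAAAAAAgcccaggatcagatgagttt
Malat1 run of A: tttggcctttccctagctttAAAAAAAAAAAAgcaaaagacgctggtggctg
Neat1 last bases: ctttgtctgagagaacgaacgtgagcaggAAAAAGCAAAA

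Compared per kilobase of merged exon, as the genes differ in length, Meg3 and Snhg11 had the highest levels, with means of 196 ± 43.3 and 186 ± 30.5 CPM per kb (SD, n = 21). These are levels of RNA captured by its poly(A) tail, and how completely each RNA was captured was not measured. The merged exon also spans all annotated transcripts of a gene, whichever were present. The order is therefore one of captured reads per length and need not be that of the RNAs in the tissue. Malat1 followed at 141 ± 69.7 CPM per kb, Miat at 49.7 ± 10.4 and Rian at 28.2 ± 2.05 (SD, n = 21 each). Neat1 had 7.92 ± 0.915 CPM per kb, Mirg 2.7 ± 0.483 and Kcnq1ot1 0.222 ± 0.07 (SD, n = 21 each). The ranges over libraries overlapped between Meg3 and Snhg11, between Snhg11 and Malat1, and between Miat and Rian, whereas every library ranked Malat1 above Miat, Rian above Neat1, Neat1 above Mirg and Mirg above Kcnq1ot1.

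The genes also differed in how much mice of one group varied. The SD of log2 CPM within groups was 0.42 for Malat1, larger than for 98.4% of the 252 genes of like level (within 1 log2 unit), and 0.35 for Kcnq1ot1, larger than for 95.7% of 4883 such genes. It was 0.29 for Miat, 0.31 for Meg3, 0.22 for Mirg, 0.22 for Snhg11 and 0.17 for Neat1. These were larger than for 95.9%, 92.3%, 81.7%, 83.3% and 70.5% of the genes of like level, respectively, with only 26 such genes for Meg3. Rian had the smallest SD, 0.10, with 26.4% of the 583 genes of like level below it. With WTEE sample 10 left out the SD was 0.29 for Malat1, 0.29 for Kcnq1ot1, 0.19 for Miat and 0.24 for Meg3, the last close to the 0.22 of Mirg, and 0.20 for Snhg11, 0.18 for Neat1 and 0.10 for Rian. Malat1 and Kcnq1ot1 were then above 98.5% and 96.5% of the genes of like level, and Rian above 56.0%. The others were also high, with Miat above 94.7%, Neat1 94.2%, Snhg11 93.1%, Mirg 92.0% and Meg3 91.3% (of 23 genes).

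**Figure D1:**
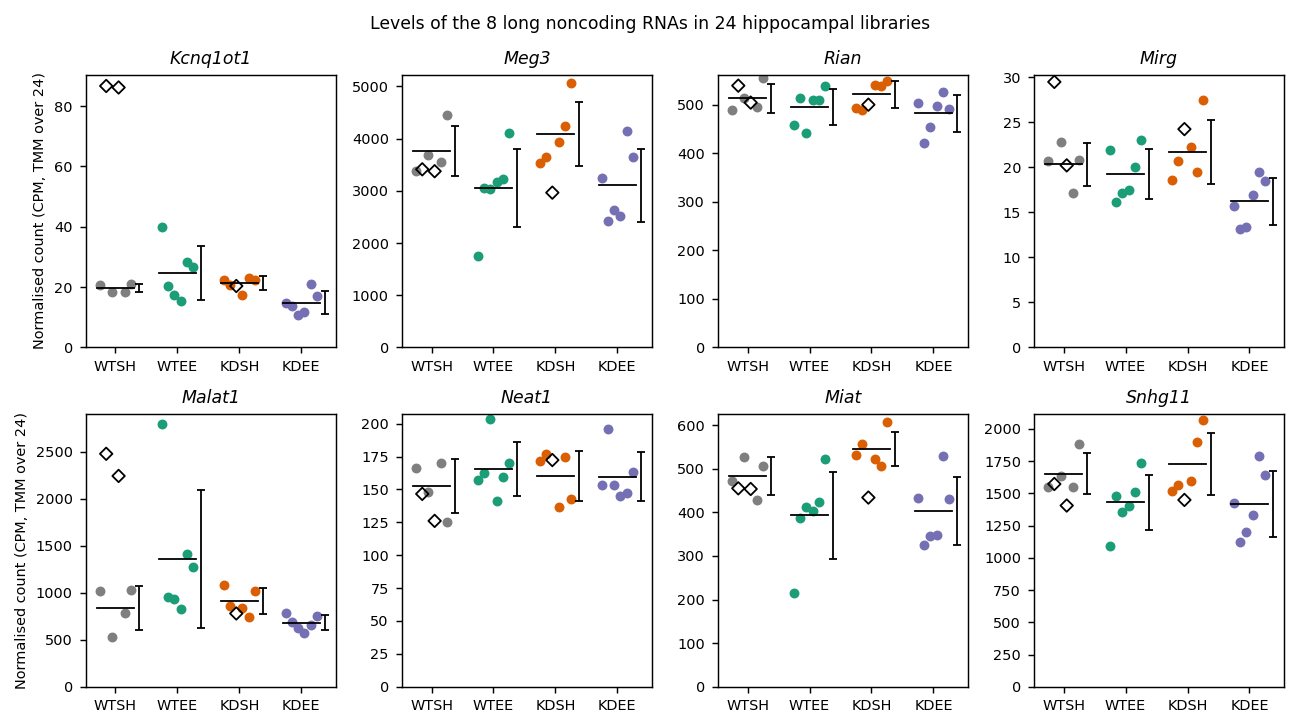
Normalised count (CPM, TMM scaling over all 24 libraries, linear axes from 0) of each gene in each library by group. Filled points are the 21 kept libraries, open diamonds the 3 set aside, horizontal lines the means and error bars the SD of the kept libraries. Kcnq1ot1 and Malat1 in the 2 open WTSH diamonds lie far above the other WTSH libraries, and WTEE sample 10 is the highest kept point for both and the lowest for Meg3, Miat and Snhg11.

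Of the nuclear body RNAs, Malat1 was measured at 1047, 541, 803 and 1058 CPM in the 4 WTSH libraries and at 1113, 885, 867, 765 and 1054 CPM in the 5 KDSH libraries. In the 6 WTEE libraries it ranged from 855 to 2866 CPM with a median of 1138, and in the 6 KDEE libraries from 591 to 811 CPM with a median of 688. Every WTEE library was thus above every KDEE library, while all other pairs of groups overlapped. Malat1 had a log2 fold change of 1.003 (SE 0.23) for WTEE against KDEE, 0.70 (SE 0.26) for WTEE against WTSH, −0.42 (SE 0.24) for KDEE against KDSH and 0.12 (SE 0.27) for KDSH against WTSH. Without WTEE sample 10, at 2866 CPM, the values were 0.66 for WTEE against KDEE and 0.36 for WTEE against WTSH.

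Neat1, transcribed next to Malat1, was measured at 172, 152, 174 and 129 CPM in WTSH and at 177, 183, 141, 179 and 147 CPM in KDSH. It ranged from 146 to 208 CPM in WTEE, with a median of 165, and from 149 to 199.8 CPM in KDEE, with a median of 157. All groups overlapped, and the 4 log2 fold changes lay between −0.01 (SE 0.10), for KDEE against KDSH, and 0.12 (SE 0.11), for WTEE against WTSH. The first of these had the opposite sign, 0.02 (SE 0.11), with the share of reads on no feature as a covariate.

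Among the imprinted genes, Kcnq1ot1 was measured at 21.3, 18.9, 18.97 and 21.6 CPM in WTSH and at 23.2, 21.3, 18.1, 23.7 and 23.1 CPM in KDSH. It ranged from 15.96 to 41.0 CPM in WTEE, with a median of 24.1, and from 11.05 to 21.7 CPM in KDEE, with a median of 14.6. The standard-housed groups were narrow and the enriched groups wide, with a coefficient of variation of 36.6% in WTEE and 7.21% in WTSH. Without WTEE sample 10 the other 5 WTEE libraries had 22.2 ± 5.79 CPM (SD). The narrow WTSH group leaves out samples 4 and 7, which had 86.7 and 86.2 CPM when scaled with all 24 libraries. Its log2 fold change was 0.73 (SE 0.19) for WTEE against KDEE, −0.52 (SE 0.20) for KDEE against KDSH, 0.33 (SE 0.21) for WTEE against WTSH and 0.12 (SE 0.22) for KDSH against WTSH. Without WTEE sample 10 the value for WTEE against KDEE was 0.54 and that for WTEE against WTSH 0.14.

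Meg3, the first of the 3 RNAs on chromosome 12, was measured at 3488, 3786, 3636 and 4580 CPM in WTSH and at 3637, 3766, 4063, 4339 and 5216 CPM in KDSH. It ranged from 1802 to 4209 CPM in WTEE, with a median of 3193, and from 2478 to 4272 CPM in KDEE, with a median of 3016. Both enriched groups had lower means than both standard-housed groups, with overlap in every pair. The log2 fold change was −0.40 (SE 0.17) for KDEE against KDSH, −0.31 (SE 0.18) for WTEE against WTSH and −0.02 (SE 0.16) for WTEE against KDEE. Without WTEE sample 10, at 1802 CPM, the WTEE against WTSH value was −0.18 and the WTEE against KDEE value changed sign to 0.09.

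Rian, the next along the chromosome and the host of most of the small nucleolar RNAs there, was measured at 504, 526, 507 and 572 CPM in WTSH and at 508, 505, 556, 552 and 564 CPM in KDSH. It ranged from 451 to 551 CPM in WTEE, with a median of 525, and from 429 to 542 CPM in KDEE, with a median of 508. Its largest log2 fold change among these 4 comparisons was −0.12 (SE 0.07), for KDEE against KDSH.

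Mirg, which hosts a microRNA cluster, was measured at 21.4, 23.4, 17.5 and 21.4 CPM in WTSH and at 19.1, 21.4, 23.0, 19.9 and 28.3 CPM in KDSH. It ranged from 16.5 to 23.6 CPM in WTEE, with a median of 19.3, and from 13.4 to 20.1 CPM in KDEE, with a median of 16.8. KDEE held the lowest values and overlapped KDSH by its highest library alone. Mirg had log2 fold changes of −0.43 (SE 0.12) for KDEE against KDSH and 0.25 (SE 0.12) for WTEE against KDEE. Between the start of Meg3 and the end of Mirg lie 89 symbols of the annotation's microRNA and small nucleolar RNA classes, 60 of them named Mir or Snord. Of the 89, 32 had 0 counts over the 21 libraries, and the counts of the 89 summed to 7384 (4614 for the 60), against 4082029 for the 3 host genes. These counts are no measure of the levels of the small RNAs themselves, since RNA was captured by its poly(A) tail. Read pairs on bases that a small RNA shares with a host exon may also have gone uncounted, which was not tested.

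Of the neuronal RNAs, Miat was measured at 486, 540.0, 439 and 523 CPM in WTSH and at 547, 574, 539.7, 518 and 624 CPM in KDSH. It ranged from 220.4 to 535 CPM in WTEE, with a median of 418, and from 333 to 545 CPM in KDEE, with a median of 401. The enriched groups were again lower on average, and WTEE sample 10 was the lowest of all 21 libraries. Its fitted difference on the log2 scale was −0.44 (SE 0.15) for KDEE against KDSH and −0.30 (SE 0.16) for WTEE against WTSH, the second becoming −0.17 without that library. The value for WTEE against KDEE was −0.03 (SE 0.15) and changed sign to 0.09 without it.

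Snhg11 was measured at 1598, 1678, 1584 and 1942 CPM in WTSH and at 1566, 1614, 1646, 1947 and 2129 CPM in KDSH. It ranged from 1122 to 1777 CPM in WTEE, with a median of 1483, and from 1144 to 1843 CPM in KDEE, with a median of 1415. The log2 fold change was −0.29 (SE 0.12) for KDEE against KDSH and −0.21 (SE 0.13) for WTEE against WTSH, and 0.01 (SE 0.12) for WTEE against KDEE. The WTEE against WTSH value without WTEE sample 10 was −0.14 and the WTEE against KDEE value 0.08. The means of Meg3, Rian, Mirg, Miat and Snhg11 were all highest in KDSH, next in WTSH and lower in both enriched groups.

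**Figure D2:**
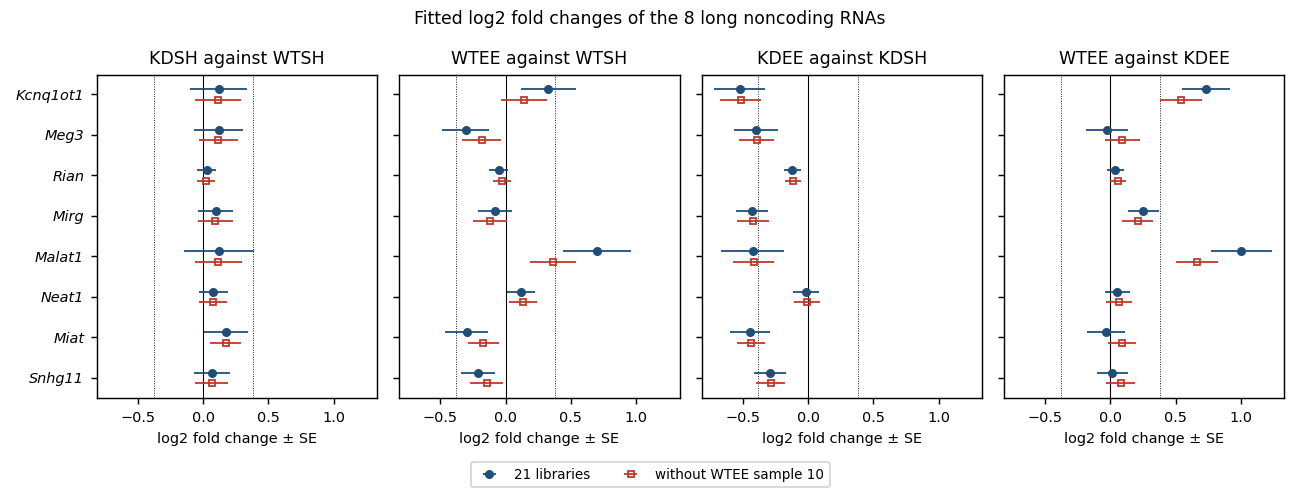
Log2 fold change (points) with its standard error (bars) of each gene in 4 comparisons, from the edgeR fit to 21 libraries (filled circles) and to the 20 without WTEE sample 10 (open squares). Dotted lines mark 0.38 in either direction. All 8 circles lie below 0 for KDEE against KDSH, and Malat1 (1.003) and Kcnq1ot1 (0.73) are the circles past 0.38 for WTEE against KDEE.

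Set side by side, the 8 log2 fold changes for KDEE against KDSH were all below 0, with a median of −0.41, where 49.6% of the 20187 tested genes were below 0 and their median was 0.00. In that comparison 5 of the 8 genes, Kcnq1ot1, Meg3, Mirg, Malat1 and Miat, were past 0.38 in size, against 13.4% of all tested genes. For WTEE against KDEE 2 of the 8 (Malat1 and Kcnq1ot1) were past it, against 7.39% of all genes, and for WTEE against WTSH 1 of 8 (Malat1), against 10.9%. For KDSH against WTSH 0 of 8 were past it, against 7.69%, and the 8 values ranged from 0.03 to 0.17. Below 0 were also 5 of the 8 for WTEE against WTSH (48.5% of all genes), 2 for WTEE against KDEE (50.5%) and 0 for KDSH against WTSH (50.1%). Some marker sums differed between the same groups. From KDSH to KDEE the median went from 4907 to 6594 CPM for 5 oligodendrocyte markers and from 1610 to 1855 for 5 astrocyte markers. It went from 49.8 to 123 for 5 blood markers and from 43.1 to 116 for 8 choroid plexus markers. None of these markers was at 0. The ranges were 4501 to 6626 and 5702 to 6852 CPM for the oligodendrocyte markers, 1490 to 1952 and 1729 to 2219.65 for the astrocyte markers, 38.1 to 76.6 and 74.8 to 238 for the blood markers, and 25.5 to 105 and 88.5 to 9605 for the choroid plexus markers. For 6 hippocampal excitatory neuron markers the median went from 8141 to 7880 CPM, with ranges of 7917 to 8326 and 7401 to 8454. For 4 microglia markers it went from 263 to 278, with ranges of 215 to 269 and 245 to 294. For 5 pituitary markers it went from 2.15 to 2.61, with ranges of 1.86 to 242 and 2.18 to 3.06. The part of any of these markers in the levels of the 8 genes was not tested. Each of the 4 groups enters 2 of the comparisons, and since the genes were chosen with these levels known, nothing is read from the counts. The 1 gene whose groups did not overlap, Malat1 in WTEE against KDEE, stands beside 0.624% of all tested genes without overlap in either direction and 0.52% with WTEE above. None of the 8 was without overlap in the other comparisons, where 0.644% (KDSH against WTSH), 0.986% (WTEE against WTSH) and 1.84% (KDEE against KDSH) of all genes were.

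When p values of edgeR's quasi-likelihood test were adjusted (Benjamini-Hochberg) over all 20187 genes, no gene was called (adjusted p under 0.05 and log2 fold change over 0.38 in size) in any of the 4 comparisons, 0% of the genes tested, or in the enrichment effect of WT less that of MSK1 KD mice. At an unadjusted p under 0.05 there were 202 genes for KDSH against WTSH, 1322 for WTEE against WTSH, 2345 for KDEE against KDSH and 1007 for WTEE against KDEE. The Wald test of DESeq2 at the same thresholds called 0, 2 (0.00529%), 14 (0.0866%) and 118 genes, respectively, and 20 (0.0762%) for the difference between the enrichment effects, and of the 8 genes 1 was among these. It was Kcnq1ot1, among the 118, which were 0.438% of the genes with an adjusted p. Without WTEE sample 10, DESeq2 called 1 gene for WTEE against KDEE (0.00419%), 1 for WTEE against WTSH (0.00267%) and 1 for the difference (0.00277%), none of them one of the 8. It called 206 for KDEE against KDSH (1.23%), with Kcnq1ot1, Meg3, Mirg and Miat, 4 of the 8, among them. This setting was chosen after seeing the data, and WTEE sample 10 is in neither group of that comparison. Without it the edgeR value hardly moved, from −0.523 (SE 0.195) to −0.517 (SE 0.161) for Kcnq1ot1. For Miat it went from −0.441 (SE 0.154) to −0.435 (SE 0.107). Nothing is read from these calls of the 8 genes.

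The enrichment effect of WT less that of MSK1 KD mice was 1.12 (SE 0.36) on the log2 scale for Malat1 and 0.85 (SE 0.29) for Kcnq1ot1. For the other 6 genes it ranged from 0.06, for Rian, to 0.35 (SE 0.18), for Mirg. Without WTEE sample 10 it was 0.78 for Malat1 and 0.66 for Kcnq1ot1.

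WTEE sample 10 separated the 8 genes. Kcnq1ot1 was 1.85 times and Malat1 2.59 times the mean of the other 5 WTEE libraries there, and both were above all 20 other libraries. Meg3 was 0.53 times, Miat 0.5 times and Snhg11 0.73 times that mean, each below all 20 others. Rian (0.911 times), Neat1 (0.94 times) and Mirg (1.17 times) lay inside the range of the others. In the same library the neuron markers summed to 5608 CPM and 8 choroid plexus markers to 5253 CPM, where the 21 libraries ranged from 25.5 to 9605 CPM. The part of either in these levels was not tested.

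The 3 libraries that the study set aside were scaled together with the other 21. Kcnq1ot1 was 86.7 and 86.2 CPM in WTSH samples 4 and 7, from 1064 and 1513 read pairs, against 19.6 ± 1.36 in the 4 kept WTSH libraries (SD), and both values were above all 21 kept libraries. Malat1 was 2480 and 2244 CPM there, 2.96 and 2.68 times the kept WTSH mean and above 20 of the 21 libraries. Mirg was 29.5 CPM in sample 4, above all 21, and 20.2 CPM in sample 7, close to the WTSH mean of 20.3 ± 2.38.

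The other 5 genes lay inside the range of the 21 in both libraries, for Meg3 at 3413 and 3377 CPM and for Neat1 at 147 and 126 CPM. KDSH sample 6 lay inside that range for all 8 genes, with Kcnq1ot1 at 20.4 CPM and Malat1 at 780.2 CPM. WTSH samples 4 and 7 also lay below every kept library in the summed markers of oligodendrocytes (3661 and 3366 CPM, against at least 4501), astrocytes (1165 and 1189, against at least 1490) and microglia (149.8 and 190, against at least 215). These sums are without TMM scaling, whose factors over 24 libraries were 0.778 and 0.754 for samples 4 and 7. Their neuron marker sums were also low, at 5942 and 6181 CPM, against 7751 to 8620 in the kept WTSH libraries. Whether the glial sums would lie below the kept libraries after scaling was not tested. KDSH sample 6 had 404 CPM over 5 pituitary markers, where the kept libraries reached at most 242. The part of these in the levels was not tested. The share of read pairs that fell on no annotated feature was 32.2% and 33.0% in WTSH samples 4 and 7 and 16.4% in KDSH sample 6, against 8.41 to 15.7% in the 21 kept libraries.

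**Figure D3:**
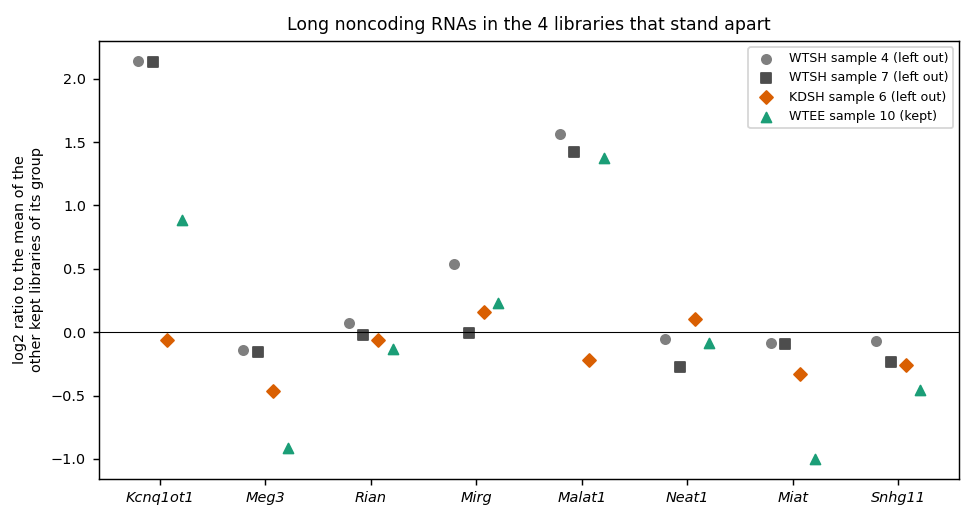
Log2 ratio of each gene in 4 libraries to the mean of the other kept libraries of its group: the set-aside WTSH samples 4 and 7 and KDSH sample 6, and the kept WTEE sample 10. Kcnq1ot1 and Malat1 are high in WTSH samples 4 and 7 and in WTEE sample 10, while Meg3, Miat and Snhg11 are low in WTEE sample 10 (0.53, 0.5 and 0.73 times) and within 0.3 log2 units of 0 in the WTSH samples.

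With those libraries in the fit, the comparisons against standard housing moved for 2 of the 8 genes. The log2 fold change of Kcnq1ot1 became −0.96 (SE 0.35) for KDSH against WTSH and −0.73 (SE 0.35) for WTEE against WTSH, both with the opposite sign, and the difference between the enrichment effects became −0.22. For Malat1 they became −0.60 (SE 0.30), also of opposite sign, and 0.02 (SE 0.30), and the difference between the enrichment effects became 0.40 (SE 0.43) in place of 1.12. The KDEE against KDSH values kept their sign, at −0.51 for Kcnq1ot1 and −0.38 for Malat1. None of the 8 was called with the 24 libraries, where edgeR called 1 gene (0.00505%), for WTEE against WTSH, and DESeq2 1 (0.00262%) for KDSH against WTSH, 6 (0.029%) for WTEE against WTSH, 22 (0.141%) for KDEE against KDSH and 2 (0.00524%) for the difference between the enrichment effects.

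The share of read pairs on no feature covers reads from introns, from between genes and from unannotated transcripts, and it was lowest in KDEE, at 9.4 ± 0.852% (SD, 6 libraries), against 11.5 ± 2.85% in the 4 WTSH, 11.5 ± 1.54% in the 6 WTEE and 11.4 ± 0.999% in the 5 KDSH libraries. Over the 21 libraries Kcnq1ot1 followed it most closely, with a Pearson r of 0.62 and a Spearman rho of 0.83, followed by Mirg (r = 0.51, rho = 0.55) and Malat1 (r = 0.48, rho = 0.73). Snhg11, Miat, Rian and Meg3 had r between 0.33 and 0.42, and Neat1 had 0.13. These are descriptions over 21 libraries of log2 CPM values that share the library and its depth with the no-feature share.

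The order depended on single libraries. Without WTEE sample 10, r was 0.78 for Kcnq1ot1 and 0.74 for Malat1. Without WTSH sample 2 and WTEE sample 21, whose shares of 15.7% and 13.5% lay farthest from the median, r was 0.73 for Kcnq1ot1, 0.51 for Malat1 and 0.03 for Neat1. After the group means were taken out it was 0.44 for Kcnq1ot1, 0.36 for Snhg11, 0.34 for Miat, 0.32 for Malat1, 0.30 for Mirg, 0.28 for Meg3, 0.21 for Rian and 0.15 for Neat1. With WTEE sample 10 also left out it was 0.66 for Kcnq1ot1 and 0.65 for Malat1.

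Over all 24 libraries r was 0.89 for Kcnq1ot1 and 0.68 for Malat1, and −0.31 for Neat1, where WTSH samples 4 and 7 lie far from the rest. With the share as a covariate in the edgeR fit, the KDEE against KDSH value was −0.35 for Kcnq1ot1 in place of −0.52, −0.29 for Malat1, −0.29 for Meg3, −0.33 for Miat, −0.35 for Mirg and −0.19 for Snhg11. The WTEE against KDEE value was 0.55 for Kcnq1ot1 and 0.87 for Malat1. The part of the share in the group differences was not tested beyond this fit.

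**Figure D4:**
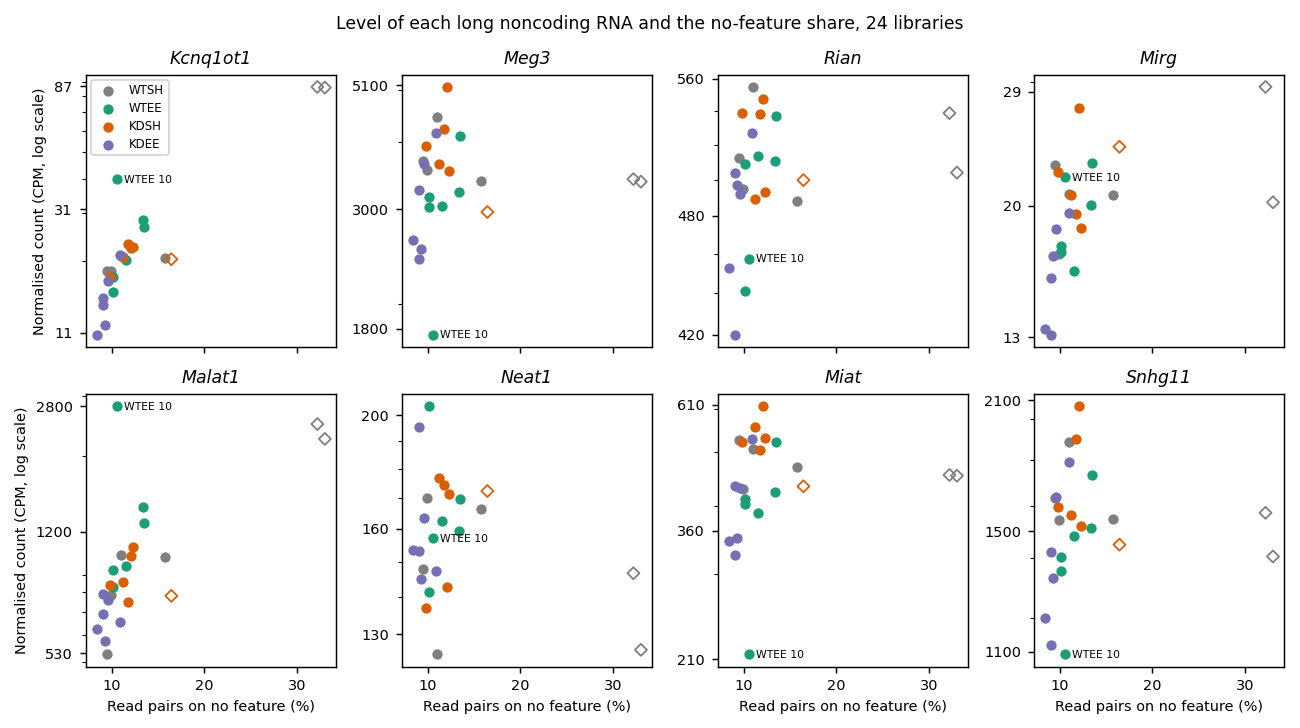
Normalised count (CPM, TMM over 24 libraries, log axes) of each gene against the percentage of read pairs on no annotated feature. Circles are the 21 kept libraries coloured by group and open diamonds the 3 set aside. The WTSH diamonds at 32.2 and 33.0% are high for Kcnq1ot1 and Malat1 and not for Neat1. KDSH sample 6 (16.4%) and WTSH sample 2 (15.7%) are lower for Kcnq1ot1 and Malat1 than WTEE samples 17 and 21 (13.3 and 13.5%).

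The 2486 gene models of the annotation's class TEC, transcripts that still await experimental proof, gave a second measure. Their summed level, taken without TMM scaling, was 747 to 1130 CPM in the 21 libraries. Kcnq1ot1 correlated with it at r = 0.82 over the 21 libraries and 0.97 without WTEE sample 10. Over the 21 libraries Mirg, Snhg11 and Rian were at 0.67, 0.66 and 0.59, and Meg3, Malat1 and Miat at 0.56, 0.53 and 0.49. Without that library Snhg11, Meg3, Malat1 and Miat were at 0.76, 0.75, 0.73 and 0.71, and Mirg and Rian at 0.68 and 0.62. For Neat1 r was −0.02 with and without it. The number of read pairs on genes correlated with the 8 levels at r between −0.28 and 0.12. With group means taken out it was −0.47 for Mirg, −0.43 for Kcnq1ot1 and −0.35 for Malat1, and between −0.29 and 0.05 for the other 5.

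After the group means were taken out, the 8 genes fell into unlike pairs over the 21 libraries. Meg3, Miat and Snhg11 moved together, with r of 0.94 between Meg3 and Snhg11, 0.92 between Meg3 and Miat and 0.81 between Miat and Snhg11. Within the chromosome 12 region r was 0.73 between Meg3 and Rian, 0.55 between Rian and Mirg and 0.39 between Meg3 and Mirg, the last becoming 0.76 without WTEE sample 10. Between Malat1 and its neighbour Neat1 r was −0.08.

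Neat1 ran against Rian, at −0.72, and −0.78 without WTEE sample 10. Kcnq1ot1 correlated with Malat1 at 0.75, and at 0.57 without that library. Conversely its r with Meg3 was 0.01 with the library and 0.66 without it, and that with Miat −0.10 and 0.68. These correlations have no p value, and all points share the libraries and their scaling.

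**Figure D5:**
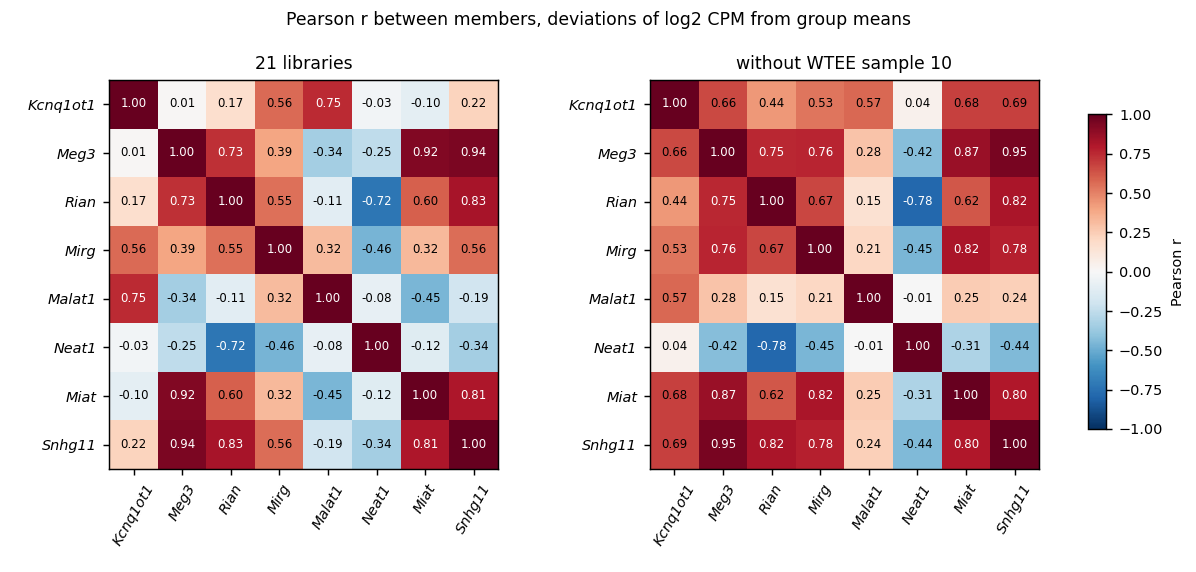
Pearson r between the genes, computed on deviations of log2 CPM from the group means over 21 libraries (left) and over 20 without WTEE sample 10 (right). The colour runs from −1 (blue) to 1 (red). The pairs among Meg3, Miat and Snhg11 are high on both sides, and the pairs of Kcnq1ot1 with Meg3, Miat and Snhg11 are 0.01, −0.10 and 0.22 on the left and 0.66 to 0.69 on the right.

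The tested genes whose deviations from the group means were most like those of each RNA over the 21 libraries were mostly protein-coding. For Kcnq1ot1 they were Taf1b (r = 0.81), Pibf1 (0.81) and 1810024B03Rik (0.80). For Meg3 they were Gm2824, Herc1 and Mdn1, at 0.97, 0.96 and 0.96, and for Miat Myt1, Zmym3 and Abcc5, at 0.97, 0.97 and 0.96.

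For Snhg11 the nearest were Exoc1 and Spaca6 (0.95 each) and Meg3 itself (0.94). For Rian they were Zranb2, Pak3 and Ptcd3, at 0.90, 0.89 and 0.88, and for Mirg Atg16l1, Tars2 and Srpk1, at 0.90, 0.85 and 0.85. For Neat1 they were Iqch, Slc16a9 and the transporter gene Slco1a4, at 0.85, 0.81 and 0.81. For Malat1 they were Amdhd2, Gm9916 and Bhlha9, at 0.83, 0.81 and 0.81, of which Amdhd2 and Bhlha9 were at 0.57 and 0.55 without WTEE sample 10.

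The protein-coding genes near and around these RNAs were tested in the same edgeR fit, and none was called in any comparison. Of the 6 other genes of the Dlk1-Dio3 region, all tested, Rtl1, a retrotransposon-derived gene expressed from the paternal chromosome, had 8.39 ± 0.855 CPM (SD) in the 5 KDSH libraries and 6.7 ± 0.61 in the 6 KDEE libraries. Its log2 fold change for KDEE against KDSH was −0.32 (SE 0.10), with an adjusted p of 0.338 from edgeR's quasi-likelihood test. In WTSH samples 4 and 7 Rtl1 was 15.2 and 12.4 CPM, above the highest of the 21 libraries, 9.47 CPM. Dio3, the deiodinase that inactivates thyroid hormone, had a log2 fold change of −0.40 (SE 0.17) in the same comparison (adjusted p = 0.397, edgeR).

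Of the 16 genes of the Kcnq1 and neighbouring Igf2 region, 14 were tested and 0 called in each comparison. Kcnq1, within which Kcnq1ot1 lies, was at 0.789 ± 0.157 CPM (SD) in the 4 WTSH libraries, 0.699 ± 0.112 in the 6 of WTEE, 0.949 ± 0.301 in the 5 of KDSH and 0.907 ± 0.171 in the 6 of KDEE. In WTSH samples 4 and 7, where Kcnq1ot1 was at 86.7 and 86.2 CPM, Kcnq1 was 0.733 and 1.03 CPM, inside the range of the 21. Cdkn1c, a cell cycle inhibitor that Kcnq1ot1 is known to silence on the paternal chromosome, had a log2 fold change of 1.64 (SE 0.73) for KDEE against KDSH (adjusted p = 0.406, edgeR). Igf2 had 1.74 (SE 0.73, adjusted p = 0.397, edgeR) in that comparison. Both values rest on KDEE sample 12, with 13.1 CPM of Cdkn1c and 361 CPM of Igf2, where the other 5 KDEE libraries reached at most 4.92 and 127 CPM. Without it they were 0.79 (SE 0.65) and 0.76 (SE 0.62). The summed choroid plexus markers ranged from 25.5 to 105 CPM in KDSH and from 88.5 to 9605 CPM in KDEE, and their part in these values was not tested.

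Of 12 paraspeckle protein genes, 9 were below 0 for KDEE against KDSH, with a median log2 fold change of −0.09 and 0 called. Sfpq, a core paraspeckle protein, had 203 ± 13.2 CPM (SD) in the 5 KDSH libraries and 162 ± 7.96 in the 6 KDEE libraries. Its log2 fold change was −0.32 (SE 0.07, adjusted p = 0.297, edgeR), and −0.25 (SE 0.08, adjusted p = 0.651, edgeR) for WTEE against WTSH.

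Of 13 nuclear speckle and splicing protein genes, 12 were below 0 for KDEE against KDSH with a median of −0.13, again with 0 called, and 11 were below 0 for WTEE against WTSH with a median of −0.07. Pnn, a speckle protein, had −0.18 (SE 0.06, adjusted p = 0.350, edgeR) in the first of these. The 7 repressive chromatin genes, which include the Polycomb subunits Ezh2, Eed and Suz12, had a median of −0.05 for KDEE against KDSH and 0 called.

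Of 37 other long noncoding RNA genes looked for, 35 were in the files, 31 were tested and 0 were called in each comparison. Their median log2 fold change for KDEE against KDSH was −0.01, with 16 of 31 below 0, and 0.05 for WTEE against KDEE. Mir124a-1hg, host of a neuronal microRNA, had −0.40 (SE 0.10, adjusted p = 0.338, edgeR) for KDEE against KDSH. Ftx, a noncoding RNA of the X inactivation centre, had −0.33 (SE 0.10, adjusted p = 0.338, edgeR) in the same comparison. Lncpint had 1.05 (SE 0.40, adjusted p = 0.658, edgeR) for WTEE against KDEE.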

How the data were processed

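The authors captured polyadenylated RNA on poly-T beads, made unstranded paired-end libraries, used Skewer for trimming, STAR 2.5 for alignment to GRCm38 and HTSeq 0.6.1p1 for counting unique alignments. What they deposited, for 24 libraries, are unnormalized counts for each gene symbol. The 8 genes and all lists were chosen with earlier results of these data known. Of 49568 gene rows, 47139 (95.1%) matched 1 gene of GENCODE M21. Rows for reads on no feature stayed out of library sizes. Counts of 21 libraries were fitted in edgeR 4.0.16 (R 4.3.3) with TMM, its default filter, 4 groups in 1 model and the quasi-likelihood test, and genes were called at a Benjamini-Hochberg adjusted p under 0.05 and a log2 fold change over 0.38 in size, the study's thresholds. DESeq2 1.42.0 was the alternative. Each library came from a separate mouse, and PCR copies count separately. Enriched cages held more mice than standard cages and no label gives the cage. Effects of cage or group size thus cannot be told apart from those of enrichment. Correlations used log2 CPM without a prior count. The SDs within groups and the search for the most correlated genes used log2 CPM with a prior count of 2. The fit was tested on simulated counts of 20187 genes, 200 of them changed by a log2 fold change of 1: 187 were among the 196 called for WTEE against KDEE. The changed genes had a mean count of at least 50, genes varied independently and no library stood apart. The simulation therefore gives no power for smaller changes or for libraries like these. Named are the 8 genes, Rps6ka5, members of the lists, and the 3 genes most correlated with each of the 8. Sequencing lanes were not used, as no label gives them. Figures were drawn with matplotlib 3.10.9.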

Additional observations from a re-analysis of the deposited data

Results flagged for a closer look

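Each of the 8 genes was looked at in each of the 4 groups for a library far from the others by Dixon's criterion in groups of 4 to 6 libraries, and 2 of the 32 gene and group combinations (6.25%) had one, where chance gives about 5%. Malat1 was 2866.17 CPM in WTEE sample 10, with the other 5 WTEE libraries between 855 and 1456 CPM, and Kcnq1ot1 (41.0 CPM) was also highest in that library. Neat1 was 199.795 CPM in KDEE sample 12, with the other 5 KDEE libraries between 149 and 167 CPM, while Rian was lowest of all 21 libraries there, at 429 CPM. The cause was not tested in either case.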

How the results depend on the processing

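No paired analysis was possible because no sample number occurs in more than 1 group. Of 1160 alternative values of the 8 genes' log2 fold changes, 1148 stayed within the spread between replicates and 12 moved, all of them Kcnq1ot1 or Malat1 with all 24 libraries. The 1148 include changes larger than the standard error, made by leaving out WTEE sample 10. Malat1 went from 1.003 (SE 0.23) to 0.66 for WTEE against KDEE and from 0.70 (SE 0.26) to 0.36 for WTEE against WTSH. Kcnq1ot1 went from 0.733 (SE 0.187) to 0.542 for WTEE against KDEE. The counts of 0 called genes became, with DESeq2, 2 for WTEE against WTSH, 14 for KDEE against KDSH, 118 for WTEE against KDEE and 20 for the difference between the enrichment effects. Among alternatives chosen after seeing the data, DESeq2 on all 24 libraries called 1 for KDSH against WTSH, 6 for WTEE against WTSH, 22 for KDEE against KDSH and 2 for the difference, and DESeq2 without WTEE sample 10 called 206 for KDEE against KDSH and 1 each for WTEE against WTSH, for WTEE against KDEE and for the difference. edgeR on all 24 libraries called 1 gene for WTEE against WTSH, and leaving out each library in turn gave 0 to 1, the 1 without WTEE sample 13. Over all 24 libraries r with the no-feature share was 0.886 for Kcnq1ot1, 0.0831 for Meg3, −0.309 for Neat1, 0.134 for Miat and 0.0593 for Snhg11, and Mirg had 0.298 with group means taken out and 0.352 also without WTEE sample 10. With the no-feature share as a covariate, 4 of 40 log2 fold changes changed sign, each within 0.1 of 0 without it (Neat1 for KDEE against KDSH, Snhg11 for WTEE against KDEE, and Meg3 and Snhg11 for the difference between the effects). Leaving out 1 library at a time changed the sign of 10 of the 40, the largest of them 0.12 in size. The cause of these changes was not tested. The groups held 4 to 6 mice, and the lowest level among the 8 genes was 11.05 CPM, of Kcnq1ot1 in KDEE, in libraries of at least 27410239 read pairs.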
